A study of Drosophila melanogaster with 8 samples.

Results

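The genes described here encode the voltage-gated and potassium channels of Drosophila melanogaster neurons. The set holds 37 genes of the 17137 reference genes in the expression tables. They were chosen by gene symbol, with earlier results of these data known. The set covers pore-forming subunits of sodium, calcium, potassium, leak and hyperpolarization-activated channels together with their auxiliary subunits. The symbols of 36 were found in the tables as written, and stol was found under its older name CG4587. They fall into 12 groups by role.

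The study used poly(A) RNA-seq to ask how gene expression differs with sex and with activity of fruitless (fru), a gene whose male-specific transcription factors pattern courtship circuits. Cells were sorted from pooled adult central brains, without optic lobes, into 4 groups of 2 libraries each: male fru+, male fru-, female fru+ and female fru-. All 4 groups shared strain (w1118), age (2 to 7 days) and genotype: UAS-mCD8-GFP opposite MB247-Gal80, with 1 copy of Fru-GAL4, opposite a chromosome that the labels write as wild type and the methods as a balancer. fru+ cells were those labelled with membrane GFP through Fru-GAL4, which reports the fru P1 promoter, and fru- cells were unlabelled cells of the same brains. MB247-Gal80 removed GFP from the Kenyon cells of the mushroom body, so that γ Kenyon cells, which transcribe fru, fell among the fru- cells. Each group is thus a pool of many cell types, and the fru- cells are a sample of the rest of the central brain. Per the study's methods, male and female cells with the same replicate number came from the same sorting session.

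Action potentials in fly neurons depend on a single voltage-gated sodium channel gene, para, whose current is shaped by small auxiliary proteins of the TipE family. Repolarization depends on voltage-gated potassium channels of the Shaker, Shab, Shal and Shaw families, on the eag family and on potassium channels opened by intracellular calcium. Voltage-gated calcium channels drive transmitter release and dendritic calcium entry. Leak, inward rectifier and two-pore channels set the resting potential, and the hyperpolarization-activated channel Ih supports rhythmic firing. Many of these genes were found as mutants that shake under ether or are paralysed by heat.

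The labels could be checked against fru itself. It had 56.2 and 63.1 TPM in male fru+ and 71.6 and 61.0 TPM in female fru+ libraries, against 8.19 and 7.39 TPM in male fru- and 3.75 and 15.1 TPM in female fru- libraries (TPM is a level scaled to transcript length and to the library). Aligned depth was between 3.16 and 4.93 Gb a library, as worked out from coverage and FPKM. The 8 neuron markers summed to 5032 to 7335 TPM in fru+ and 3798 to 6731 TPM in fru- libraries, with female fru- replicate 1 the lowest of all 8 libraries. The 8 glial markers summed to 324 to 617 TPM in fru+ and 447 to 1753 TPM in fru- libraries, so neuron markers outweighed glial markers in every library and glial transcripts were present in all. In sorted pools, fewer cells of a type and less RNA per cell cannot be told apart.

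Channel genes were expressed at moderate to high levels. Over the 8 libraries, the auxiliary subunit gene Teh3 had the highest mean, 404 TPM, followed by qvr with 308, Sh with 306, Ih with 231 and Teh2 with 210 TPM. These levels are summed over isoforms. By coverage per base of all exons, on the same scale, Sh was lower, at 21.0 to 86.8, and Ih at 52.7 to 175.9. At the other end, KCNQ had a mean of 9.57, Irk3 of 2.86, Irk1 of 2.11, Ork1 of 0.80 and sand of 0.68 TPM. Teh3 stood above 95.5% of the 10111 genes that were tested, and para, at 69.0 TPM, above 74.0%. Summed TPM of the 37 genes was 3196 and 2908 in male fru+, 3986 and 2493 in female fru+, 3621 and 3604 in male fru- and 2207 and 3264 in female fru- libraries. The highest sum was that of female fru+ replicate 1 and the lowest that of female fru- replicate 1, and the range of the 4 fru+ libraries held 3 of the 4 fru- values. In all, 36 of the 37 genes passed the filter of at least 1 TPM in at least 2 of the 8 libraries. The gene that did not was sand, a two-pore channel gene known for its role in sleep-promoting neurons, at 0.62 and 0.56 TPM in male fru+, 0.58 and 1.58 in female fru+, 0.31 and 0.95 in male fru- and 0.68 and 0.13 TPM in female fru- libraries.

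**Figure D1:**
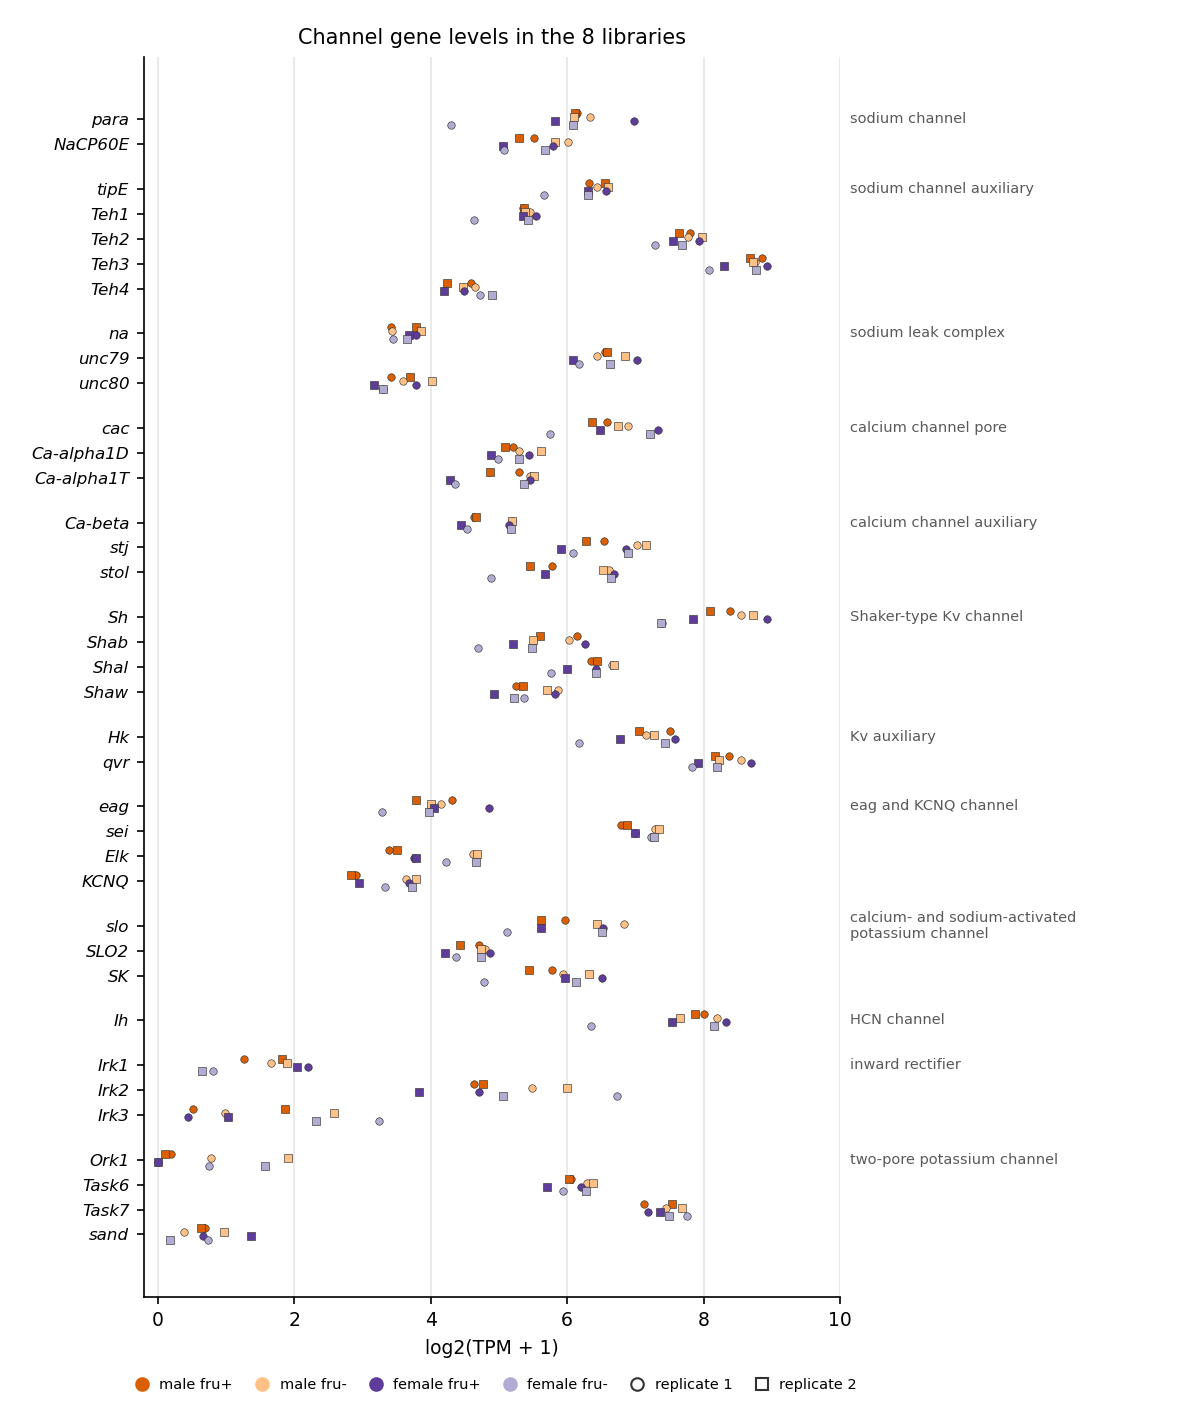
Level of each of the 37 channel genes, as log2(TPM + 1) on the x axis, in the 8 libraries, with genes grouped by role down the page; colours mark the 4 groups and circles and squares replicates 1 and 2. Most genes keep their place in the order across libraries, Teh3, qvr and Sh are at the top, and female fru- replicate 1 lies to the left of the other libraries for genes such as para and Ih.

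Most members moved together from library to library, and this bears on the comparisons of single genes below. Of the 36 tested members, 15 had their highest level in female fru+ replicate 1, where 9.93% of all tested genes were highest, and 15 had their lowest in female fru- replicate 1, where 13.6% of all tested genes were lowest. A further 12 were lowest in female fru+ replicate 2 (21.1% of all tested genes), and 13 were highest in male fru- replicate 2 (24.6%). Relative to each gene's mean over the 8 libraries, the members' median log2(TPM + 1) was 0.27 above in female fru+ replicate 1, 0.34 below in female fru+ replicate 2 and 0.44 below in female fru- replicate 1, while the median of all genes was within 0.09 of the mean in these 3 libraries. In female fru- replicate 1, 7 members were above their own mean instead. They were Irk3 (by 1.62), Irk2 (1.575), Task7 (0.31), Teh4 (0.185), Elk (0.15), sei (0.13) and Ork1 (0.09). By the medians, the female replicates of a group differed by more, over the members, than the male replicates did, whose members' medians were -0.04 and -0.09 in male fru+ and 0.19 and 0.28 in male fru-.

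The neuron markers moved the same way. Their median deviation was 0.34 in female fru+ replicate 1, -0.24 in female fru+ replicate 2 and -0.62 in female fru- replicate 1, in which the glial markers had theirs at 1.24. Transcript length moved with it as well. The members' longest Ensembl transcripts had a median of 5922 nt against 1846 nt over all tested genes, and 18 of the 36 were at least 6000 nt long. All 703 tested genes with transcripts of that length had a median deviation of 0.18, -0.21 and -0.24 in these 3 libraries, while the 5436 genes with transcripts under 2000 nt had -0.11, 0.02 and 0.06. The part of cell type makeup and of transcript length in the members' levels was not tested.

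**Figure D2:**
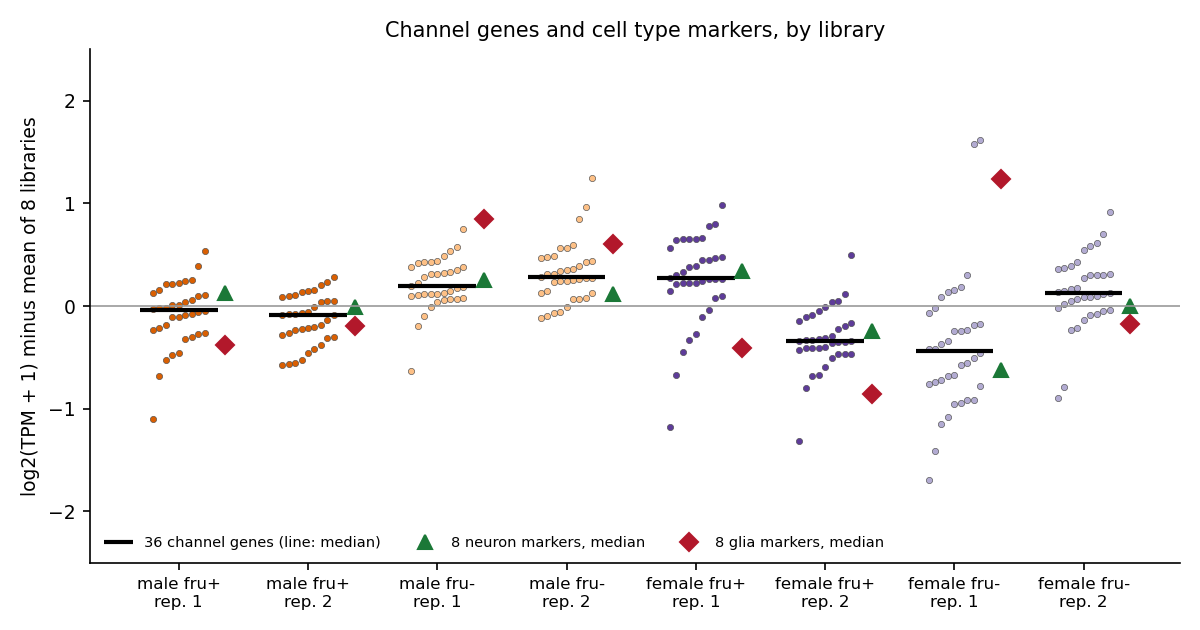
Deviation of log2(TPM + 1) from each gene's mean over the 8 libraries (y axis) for the 36 tested channel genes (points, with a black line at their median), with the medians of 8 neuron markers (green triangles) and 8 glia markers (red diamonds), by library on the x axis. The medians of the channel genes and of the neuron markers are lowest in female fru- replicate 1, with channel medians of 0.27 in female fru+ replicate 1 and -0.44 in female fru- replicate 1.

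The first question was whether fru+ cells differ from fru- cells in their channels. At an adjusted p under 0.05 (limma, Benjamini-Hochberg over 10111 genes), 0 of the 36 members were called in males, where 0.514% of all genes were, and 0 of 36 in females, where 0.653% were. Without adjustment, 4 members in males, 8 in females and 6 in the mean of the sexes had a p under 0.05, against 13.4%, 14.7% and 23.5% of all genes. In the mean of the 2 sexes, Elk was called lower and no other member was called, against 5.29% of all genes (1.49% called higher and 3.8% called lower). The pair of within-sex comparisons use different libraries, while the mean of the sexes uses all 8 and so repeats both. Most differences were under a fold of 2 (a log2 fold change between -1 and 1). This held for 33 of 36 members in males, 30 in females and 33 in the mean. The shares of all genes were higher, at 93.9%, 93.2% and 95.1%.

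The direction depended on sex and library. In males, 32 of 36 members were below 0, with a median log2 fold change of -0.28 against -0.14 over all genes, and 24 of them were below the median of all genes. In females 24 of 36 were above 0, with a median of 0.16 against -0.11 over all genes. Without female fru- replicate 1 the members' median was -0.22 with 13 above 0, against -0.14 over all genes. With libraries scaled to the 8 neuron markers it was -0.21 with 11 above 0, against -0.46 over all genes. In the mean of the sexes the members' median was -0.10, against -0.12 over all genes, with 16 above 0. Scaling by median-of-ratios moved the median of all genes by over 0.1, to -0.01 in males, 0.01 in females and 0.00 in the mean, and the members' medians to -0.14, 0.29 and 0.04.

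**Figure D3:**
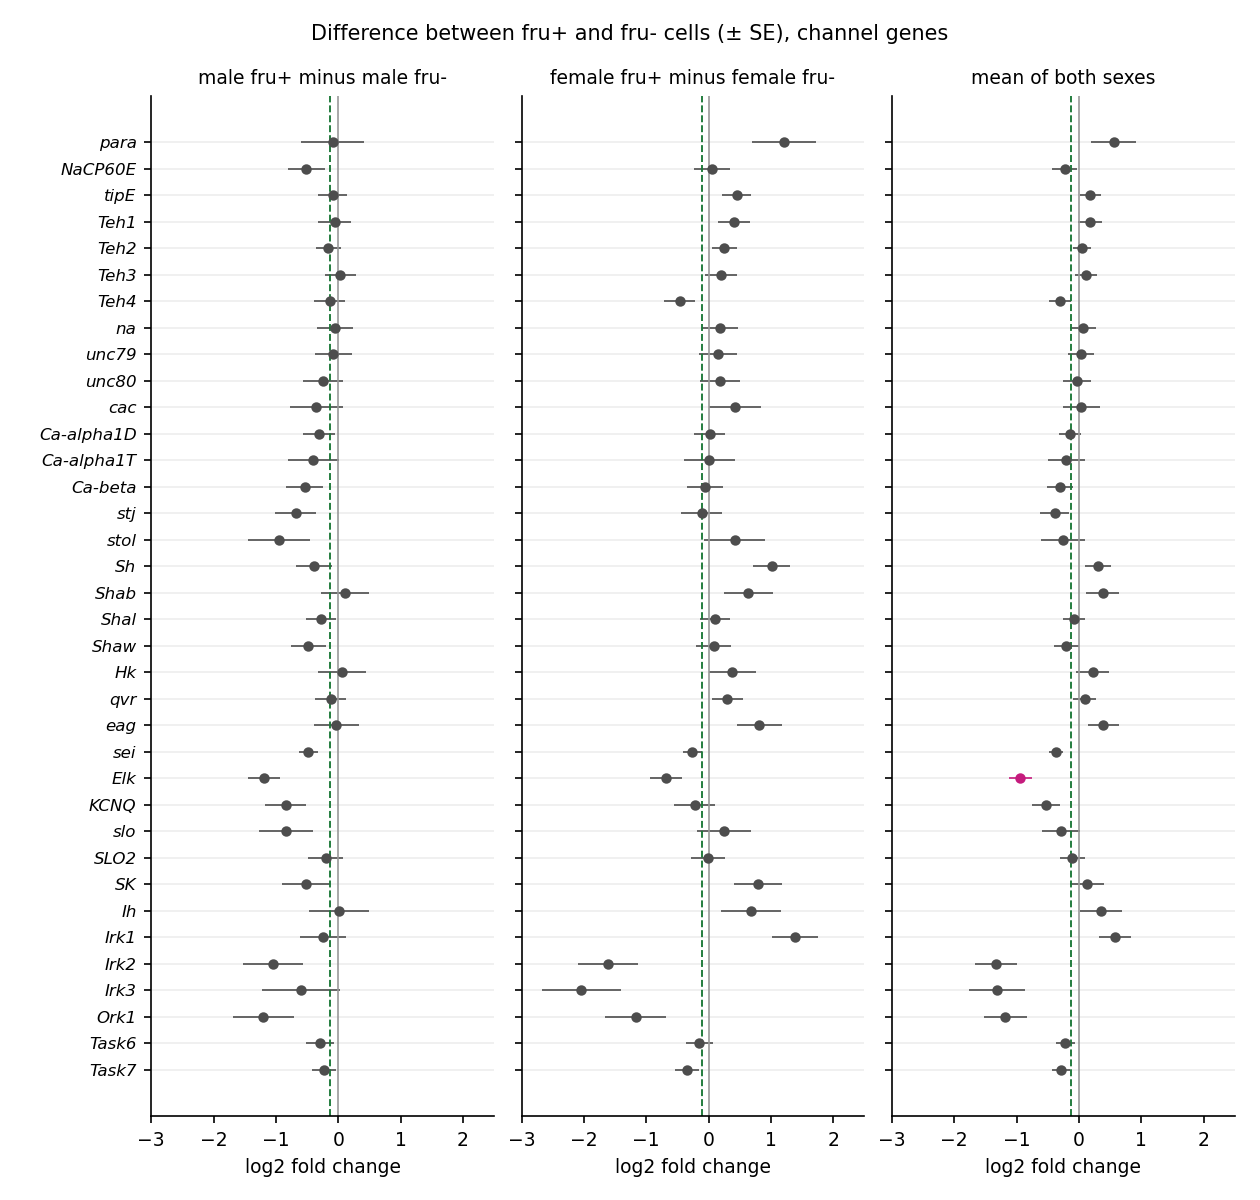
Log2 fold change of fru+ over fru- cells, on the log2(TPM + 1) scale, with bars of 1 SE, for the 36 tested channel genes in males, in females and in the mean of the sexes; the dashed green line is the median of all 10111 genes and the gene called at an adjusted p under 0.05 is in magenta. Elk in the mean of the sexes is the gene in magenta, and most points lie between -1 and 1.

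Groups were also compared by overlap of their libraries. With the 4 fru+ libraries against the 4 fru- libraries, 4 of the 36 members (sei, Elk, Irk2 and Ork1) were lower in every fru+ library than in any fru- library, a share close to the 11.6% of all genes that were, and 0 were higher in every fru+ library (3.97% of all genes). Within males, 20 members were lower in both fru+ libraries than in both fru- libraries (34.1% of all genes) and 0 were higher (15.0%). Within females, 7 were lower (29.4% of all genes) and 4 were higher (14.1%).

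Elk encodes a potassium channel of the eag family, related to the vertebrate ELK channels (chromosome 2R, 17873939 to 17926695, plus strand, dm6). It had 9.54 and 10.4 TPM in male fru+ and 12.5 and 12.8 TPM in female fru+ libraries, against 23.5 and 24.6 TPM in male fru- and 17.8 and 24.4 TPM in female fru- libraries. Every fru+ library was thus below every fru- library, and the closest pair were 12.8 and 17.8 TPM, both female. Means were 11.3 ± 1.59 TPM in fru+ and 22.6 ± 3.23 TPM in fru- cells (SD, n = 4 each). The log2 fold change was -0.94 ± 0.18 (SE) in the mean of the sexes, with an adjusted p of 0.0225 by limma. It was -1.19 ± 0.26 in males (adjusted p = 0.0925) and -0.68 ± 0.26 in females (adjusted p = 0.268), and the difference between the sexes was -0.51 ± 0.36 (adjusted p = 0.999, limma).

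The call for Elk held in 8 of 16 alternative analyses, and its log2 fold change stayed between -1.07 and -0.81. The call was lost without either male library of either group (adjusted p 0.075 to 0.104), without female fru+ replicate 2 (0.064) or female fru- replicate 2 (0.050), and with no filter or with neuron marker scaling (0.065 each). Some Kenyon cell markers were lower in fru+ cells as well. Of 10 such markers 3 (ey, prt and toy) were called lower in the mean of the sexes, against 3.8% of all genes. The rest were not called. Of these, dac (-0.84 ± 0.22), mub (-0.84 ± 0.35) and Pka-C1 (-0.83 ± 0.38) had log2 fold changes near that of Elk. Smaller ones were those of sNPF (-0.28 ± 0.13), rut (-0.13 ± 0.21), Fas2 (-0.06 ± 0.16) and dnc (0.04 ± 0.39). The median over the 10 markers was -0.74, against -0.12 over all genes. The list summed to 1196 to 1838 TPM in fru+ against 1590 to 2064 TPM in fru- libraries, and these ranges overlapped. The eye-field and Kenyon cell gene ey had 11.9 and 11.8 TPM in male fru+ and 12.9 and 12.8 TPM in female fru+, against 53.0 and 48.4 TPM in male fru- and 30.8 and 31.0 TPM in female fru- libraries. The part of Kenyon cells in the Elk difference was not tested. The table has 5 other genes inside the Elk span, and the library was not stranded, so reads shared with them cannot be told apart.

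The other members of the eag and KCNQ group varied in direction. sei, the fly ERG channel whose mutants are paralysed by heat (chromosome 2R), was uniform within groups. It had 109.9 and 117 TPM in male fru+ and 126 and 126 TPM in female fru+ libraries, against 155 and 161 TPM in male fru- and 149 and 154 TPM in female fru- libraries. All 4 fru+ values were below all 4 fru- values, with a fru+ mean of 119.8 ± 7.98 and a fru- mean of 155 ± 4.89 TPM (SD, n = 4 each). The log2 fold change was -0.37 ± 0.11, -0.48 ± 0.15 and -0.26 ± 0.15 in the mean, in males and in females, and the adjusted p by limma was 0.077, 0.223 and 0.453. Scaled to the neuron markers the mean was -0.51 ± 0.26 (adjusted p = 0.369).

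KCNQ, the fly relative of the M-current channels, had 6.47 and 6.11 TPM in male fru+ and 11.8 and 6.70 TPM in female fru+ libraries, against 11.4 and 12.8 TPM in male fru- and 9.09 and 12.2 TPM in female fru- libraries. The male groups did not overlap, and female fru+ replicate 1 lay among the fru- values. The male log2 fold change was -0.84 ± 0.33 (adjusted p = 0.310, limma). eag itself, the founding member of the family, ranged over 12.9 to 27.9 TPM in fru+ and 8.80 to 16.8 TPM in fru- libraries, with female values higher in fru+ (0.81 ± 0.36, adjusted p = 0.334). Summed over its 4 members the group was at 0.778 of its fru- level in fru+ cells, and sei made up most of that sum.

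Inward rectifiers, which in flies are best known from renal tubules and other epithelia, gave the largest difference of any role group in summed level, which in fru+ cells was at 0.385 of the fru- level. Irk2 (chromosome 3R, 23513617 to 23519445, minus strand, with no overlapping gene) had 23.7 and 26.3 TPM in male fru+ and 25.2 and 13.3 TPM in female fru+ libraries, against 43.8 and 63.1 TPM in male fru- and 105 and 32.4 TPM in female fru- libraries. The groups did not overlap, but the fru- values spread over more than the whole fru+ range. The log2 fold change was -1.33 ± 0.34 in the mean of the sexes (adjusted p = 0.0531, limma), -1.04 ± 0.48 in males and -1.62 ± 0.48 in females. The size rested on the 2 female fru- libraries. Without replicate 1, at 105 TPM, the difference was -0.79 ± 0.39 in females (adjusted p = 0.459) and -0.92 ± 0.25 in the mean (adjusted p = 0.0750, limma). Without replicate 2, the lowest of the fru- libraries, it was called lower in females (-2.46 ± 0.38, adjusted p = 0.00788) and in the mean (-1.75 ± 0.25, adjusted p = 0.00261).

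Irk3, a low gene, had 0.43 and 2.63 TPM in male fru+ and 0.36 and 1.04 TPM in female fru+ libraries, against 0.98 and 4.99 TPM in male fru- and 8.47 and 3.99 TPM in female fru- libraries. The female groups were apart and the male groups overlapped. Its log2 fold change was -1.32 ± 0.45 in the mean (adjusted p = 0.115) and -2.04 ± 0.63 in females (adjusted p = 0.188, both limma). Ork1, an open-rectifier leak channel of the two-pore family (chromosome X), was near the limit of detection. It had 0.14 and 0.08 TPM in male fru+ libraries and was listed at 0 in both female fru+ libraries, against 0.72 and 2.78 TPM in male fru- and 0.69 and 1.99 TPM in female fru- libraries. On the log2(TPM + 1) scale, which understates changes of low genes, its difference was -1.18 ± 0.35 (adjusted p = 0.0817, limma). Irk3 and Ork1 were singled out after their values were seen.

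Most glial markers were lower in fru+ cells as well. Their median log2 fold change in the mean of the sexes was -1.15, against -0.12 over all genes. Single values ran from -2.12 ± 0.43 for alrm and -1.42 ± 0.39 for repo to -0.56 ± 0.30 for moody. Only Indy was above 0 (0.06 ± 0.33). alrm, an astrocyte marker, had 24.4 and 29.8 TPM in male fru+ and 15.4 and 17.7 TPM in female fru+, against 144 and 90.0 TPM in male fru- and 188 and 33.1 TPM in female fru- libraries, and it was the 1 of the 8 glial markers called lower in fru+ (adjusted p = 0.0271 in the mean, limma). The pan-glial factor repo was at 0.66 to 2.81 TPM in fru+ and 2.25 to 8.24 TPM in fru- libraries, at 0 in none. Irk2 and alrm shared their highest library, female fru- replicate 1, and their lowest fru- library, female fru- replicate 2. Irk3 shared that highest library, at 8.47 TPM, but had its lowest fru- value in male fru- replicate 1. Ork1 shared neither, with its highest value in male fru- replicate 2 and its lowest fru- value in female fru- replicate 1. The part of glial RNA in these differences was not tested.

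**Figure D4:**
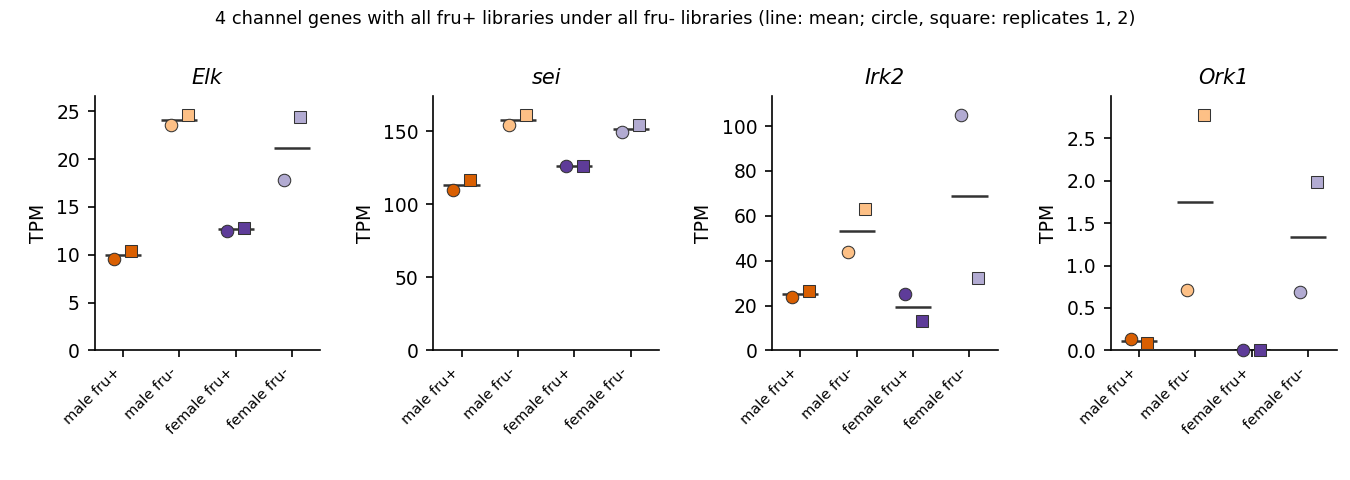
TPM (y axis, from 0) of Elk, sei, Irk2 and Ork1 in each library, by group; circles and squares are replicates 1 and 2 and the lines are group means. All 4 fru+ libraries lie under all 4 fru- libraries for each gene, tightly for sei and with a wide fru- spread for Irk2, from 32.4 to 105 TPM.

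Irk1, the third inward rectifier, went the other way in females. It had 1.41 and 2.55 TPM in male fru+ and 3.61 and 3.12 TPM in female fru+ libraries, against 2.18 and 2.73 TPM in male fru- and 0.75 and 0.57 TPM in female fru- libraries. Female fru+ was above female fru- by 1.39 ± 0.37 on the log2 scale, the smallest p of any member in females (adjusted p = 0.140, limma). The value depended on the measure. TPM is summed over isoforms, whereas the coverage in the same tables is per base of all exons, and with coverage in its place the female difference was 0.63 ± 0.37 (adjusted p = 0.448). Irk1 also overlaps 2 other genes, cnc and CG46310.

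Neither sodium channel gene was called in any comparison with all 8 libraries. para had 69.6 and 68.6 TPM in male fru+ and 125 and 55.6 TPM in female fru+ libraries, against 79.9 and 68.0 TPM in male fru- and 18.6 and 67.0 TPM in female fru- libraries. Apart from the 2 female replicate 1 libraries, at 125 and 18.6 TPM, its 6 values lay between 55.6 and 79.9 TPM. The female log2 fold change was 1.21 ± 0.51 (adjusted p = 0.318, limma), it was 0.31 ± 0.39 without female fru- replicate 1, and it was called (2.11 ± 0.39, adjusted p = 0.0200) without female fru- replicate 2. Within sorting sessions, on the same scale, female fru+ minus female fru- was 2.68 in session 1 and -0.27 in session 2. NaCP60E (DSC1), related to para in sequence and known to pass calcium, was between 32.3 and 63.8 TPM in all 8 libraries.

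The TipE family, whose founding member raises sodium current when expressed with Para in frog oocytes, kept its internal order in every library except female fru- replicate 1, where Teh4 was above Teh1. Teh3 had 461 and 409.9 TPM in male fru+ and 489 and 315 TPM in female fru+ libraries, against 431 and 420.3 TPM in male fru- and 271 and 434 TPM in female fru- libraries. Its groups overlapped, and the mean difference was 0.11 ± 0.18 (95% interval -0.29 to 0.51, log2). Teh2 followed at 156 to 251 TPM, tipE at 49.8 to 96.2, Teh1 at 23.9 to 45.5 and Teh4 at 17.3 to 28.8 TPM. Teh4 was the only member of the family with a female difference below 0 (-0.46 ± 0.25, adjusted p = 0.422, limma). Teh2, Teh3, Teh4 and tipE lie side by side on chromosome 3L and all overlap CG18675, and Teh3 lies within Teh2, so reads of these genes cannot be fully told apart.

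The sodium leak channel na and its partners unc79 and unc80, which in flies are needed for normal daily rhythms of activity, had mean log2 differences of -0.03 to 0.06 between fru+ and fru- cells, each with an SE of 0.21 or 0.22. unc79 had 92.7 and 94.99 TPM in male fru+ and 129 and 66.6 TPM in female fru+ libraries, against 86.0 and 114.8 TPM in male fru- and 71.3 and 97.8 TPM in female fru- libraries. The 2 female fru+ libraries held both its highest and its lowest value. na stayed between 9.70 and 13.6 TPM, the smallest ratio of highest to lowest library among the members (1.40), and its mean difference was 0.06 ± 0.21 (95% interval -0.39 to 0.52). unc80 was between 7.99 and 15.2 TPM, and both male fru- libraries were above both female fru- libraries (0.50 ± 0.32, adjusted p = 0.929, limma). The scaffold gene unc79 was thus measured at several times the level of the pore gene na, per length.

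Among calcium channel pores, cac, the channel of transmitter release, had 94.7 and 81.7 TPM in male fru+ and 160 and 88.2 TPM in female fru+ libraries, against 118 and 106 TPM in male fru- and 53.1 and 148 TPM in female fru- libraries. Its values overlapped, with means of 106 ± 36.1 TPM in fru+ and 106 ± 39.5 TPM in fru- cells (SD, n = 4 each). Ca-alpha1D, the L-type channel, was between 28.7 and 48.2 TPM, and Ca-alpha1T, the T-type channel, between 18.4 and 44.7 TPM. The 3 pore genes had log2 fold changes of -0.40 to -0.31 in males (adjusted p = 0.632 to 0.747) and of 0.01 to 0.42 in females (adjusted p = 0.677 to 0.996, limma).

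Calcium channel auxiliary subunits were lower in male fru+ than in male fru- libraries without passing the test. stj, the α2δ subunit that supports Cac at synapses, had 92.0 and 76.7 TPM in male fru+ and 115.1 and 59.2 TPM in female fru+ libraries, against 129 and 142 TPM in male fru- and 67.0 and 118 TPM in female fru- libraries. The male groups did not overlap and the female groups did. Its male log2 fold change was -0.68 ± 0.33 (adjusted p = 0.412, limma). stol, another α2δ gene, had a male difference of -0.95 ± 0.49 (adjusted p = 0.448) and Ca-beta of -0.54 ± 0.29 (adjusted p = 0.472). Summed over the 3 genes, the level was at 0.774 of the fru- level in fru+ cells. In females the same 3 genes had differences of -0.11 to 0.42, and the difference between the sexes was called for 0 of them (-1.37 ± 0.70 for stol, adjusted p = 0.999, limma).

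Sh, the A-type potassium channel whose mutants shake under ether, had the largest log2 fold change of any member between male and female fru- cells when measured by TPM (chromosome X, 17924307 to 18063247, minus strand). It had 333 and 273 TPM in male fru+ and 489 and 229 TPM in female fru+ libraries, against 372 and 421 TPM in male fru- and 166 and 164 TPM in female fru- libraries. In females both fru+ libraries were above both fru- libraries, and in males both were below. The log2 fold change was 1.01 ± 0.29 in females (adjusted p = 0.168) and -0.39 ± 0.29 in males (adjusted p = 0.599), and the difference of the 2 was -1.41 ± 0.41 (adjusted p = 0.999, limma). Male fru- cells were above female fru- cells by 1.25 ± 0.29 (adjusted p = 0.428, limma), a difference called without female fru+ replicate 1 (adjusted p = 0.0377) or replicate 2 (0.0369), which change only the estimate of spread.

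The measure mattered more for Sh than for most genes. Its summed TPM was 3.09 to 7.92 times the level given by exon coverage on the same scale, with the extremes in the 2 female fru- libraries, and only 44 of the 10111 tested genes had a higher ratio of means. By exon coverage Sh was at 64.1 and 45.5 in male fru+ and 86.8 and 36.3 in female fru+ libraries, against 72.4 and 55.6 in male fru- and 21.0 and 53.2 in female fru- libraries. The 2 female fru- libraries, almost equal by TPM, were thus 21.0 and 53.2 by coverage. The male and female fru- groups were still apart, with a difference of 0.90 ± 0.47 (adjusted p = 0.909, limma), and the difference between the sexes was -0.96 ± 0.66 (adjusted p = 1.00). By coverage para had the larger difference between male and female fru- cells (1.00 ± 0.48, adjusted p = 0.909), and scaled to the neuron markers Irk3 did (-1.34 ± 0.67, against 0.82 ± 0.37 for Sh, adjusted p = 0.740 for each). The other members with a median ratio above 1.5 were SK, Ih and Irk1, against 6.93% of all tested genes with a ratio of means above 1.5. For 21 of the 36 members the median ratio was under 1.1.

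**Figure D5:**
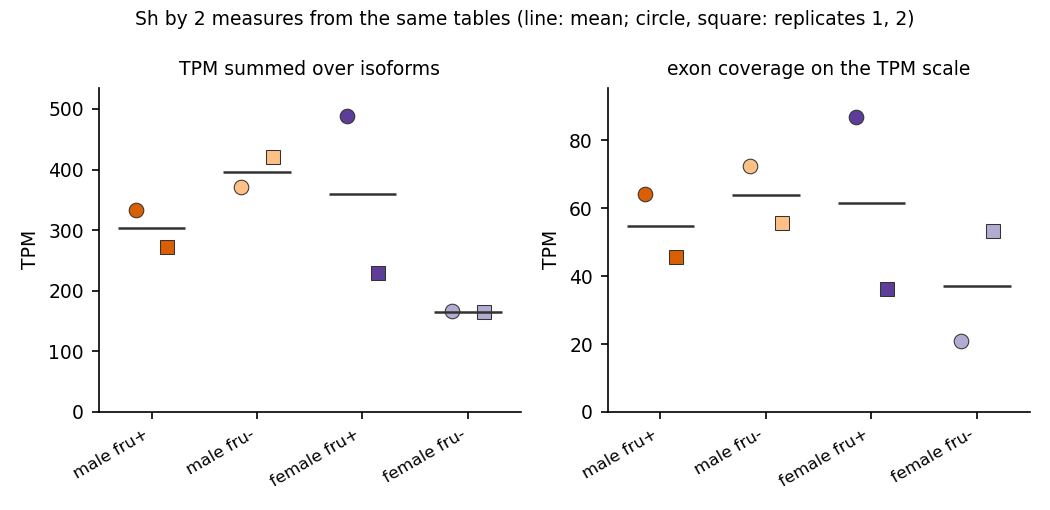
Level of Sh in each library on the TPM scale (y axes, from 0), as TPM summed over isoforms (left) and from exon coverage (right); circles and squares are replicates 1 and 2 and the lines are group means. The female fru- libraries, at 166 and 164 TPM on the left, are at 21.0 and 53.2 on the right.

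The other Shaker-type genes varied less. Shal, which carries the somatic A-type current, had 80.6 and 86.1 TPM in male fru+ and 84.8 and 62.7 TPM in female fru+ libraries, against 100.1 and 102 TPM in male fru- and 53.6 and 85.1 TPM in female fru- libraries. Its fru+ and fru- ranges overlapped, and its mean difference was -0.08 ± 0.17 (95% interval -0.46 to 0.30). Shab, the main delayed rectifier, was between 35.8 and 75.6 TPM in fru+ and 25.0 and 64.4 TPM in fru- libraries, and Shaw between 29.5 and 55.5 TPM in fru+ and 36.3 and 57.3 TPM in fru- libraries. The auxiliary gene qvr was as abundant as Sh by summed TPM. By exon coverage it was higher in every library, at 224 to 408 against 21.0 to 86.8 for Sh. qvr (sleepless), a GPI-linked protein that raises Shaker current and promotes sleep, had 331 and 286 TPM in male fru+ and 412 and 241 TPM in female fru+ libraries, against 375 and 299.8 TPM in male fru- and 226 and 292 TPM in female fru- libraries. Its groups overlapped, with a mean difference of 0.09 ± 0.18. Hk, the Shaker β subunit, was between 108 and 191 TPM in fru+ and 71.5 and 171 TPM in fru- libraries.

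Of the calcium- and sodium-activated potassium channels, slo, the BK channel, had 61.9 and 48.2 TPM in male fru+ and 91.3 and 47.9 TPM in female fru+ libraries, against 113 and 85.9 TPM in male fru- and 33.9 and 90.2 TPM in female fru- libraries. The male groups were apart and the female groups overlapped, and the log2 fold change was -0.84 ± 0.43 in males (adjusted p = 0.440) and 0.25 ± 0.43 in females (adjusted p = 0.827, limma). SK, the small-conductance channel, had 54.0 and 42.5 TPM in male fru+ and 90.3 and 61.9 TPM in female fru+ libraries, against 60.5 and 79.3 TPM in male fru- and 26.5 and 69.1 TPM in female fru- libraries. Its difference between the sexes was -1.31 ± 0.55 (adjusted p = 0.999, limma), and female fru+ was called higher without female fru- replicate 2 (1.46 ± 0.31, adjusted p = 0.0376) and stood at 0.11 ± 0.31 without replicate 1. SLO2, whose span holds 17 other genes, was between 17.5 and 28.2 TPM in all libraries.

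Ih, the single HCN channel gene of the fly, had 256 and 233 TPM in male fru+ and 319 and 185 TPM in female fru+ libraries, against 292 and 201 TPM in male fru- and 80.7 and 283 TPM in female fru- libraries. A single library, female fru- replicate 1 at 80.7 TPM, was well under the rest. The female difference was 0.68 ± 0.48 (adjusted p = 0.541, limma), it was -0.22 ± 0.32 without that library, and it was called (1.58 ± 0.32, adjusted p = 0.0301) without female fru- replicate 2. Among two-pore channels, Task7 was the highest, with 139 and 185 TPM in male fru+ and 144 and 164 TPM in female fru+ libraries, against 173 and 206 TPM in male fru- and 215 and 179.6 TPM in female fru- libraries. Its female groups were apart and its male groups overlapped, with a mean difference of -0.29 ± 0.14 (adjusted p = 0.229). Task6 was between 51.1 and 73.1 TPM in fru+ and 60.4 and 82.6 TPM in fru- libraries. Both TASK genes lay in a narrow band in all 8 libraries, unlike Ork1 of the same family.

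The second question was whether channels differ between the sexes in cells of the same fru status. In fru+ cells, male against female, 0 of 36 members were called against 0.089% of all genes, and 0 had an unadjusted p under 0.05. The members' median log2 fold change was -0.02, against 0.03 over all genes, and all 36 members stayed within a fold of 2. Ork1 was higher in both male than in both female fru+ libraries (17.0% of all genes were), at the 0.14 and 0.08 TPM given above against 0. sei, Elk, KCNQ, SK and Irk1 were lower in both male than in both female fru+ libraries (5 of 36, 12.6% of all genes). The smallest p was that of SK (-0.63 ± 0.39, adjusted p = 1.00, limma).

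In fru- cells, male against female, 0 of 36 members were called against 0.109% of all genes, and 4 had an unadjusted p under 0.05 (Sh, Irk1, Shal and tipE), against 4.99% of all genes. The members' median was 0.39, against 0.04 over all genes, with 32 of 36 above 0. Of the 36, 17 were higher in both male than in both female libraries (20.5% of all genes), and Teh4 was lower (13.3% of all genes). This shift was smaller without the low library: without female fru- replicate 1 the median was 0.07 with 24 above 0, against 0.02 over all genes. Scaled to the neuron markers, which moved all genes, the members' median was -0.03 with 16 above 0, against -0.36 over all genes. The difference of the fru effect between the sexes was called for 0 of 36 members and for 0.0% of all genes, with 3 members (Sh, Irk1 and SK) and 237 genes in all (2.34%) at an unadjusted p under 0.05. The members' median was -0.45 there, against -0.01 over all genes. It was -0.17 without female fru- replicate 1 (0.01 over all genes) and 0.01 scaled to the neuron markers (0.43 over all genes). Because each sex comparison shares its libraries with a fru comparison, these values are not independent of those above.

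Of the tested members, 9 lie on the X chromosome, which male flies carry in a single copy. Their median log2 fold change of male over female was -0.15 in fru+ and 0.44 in fru- cells, against 0.00 and 0.38 for the 27 members on other chromosomes. The difference between the 2 sets of members was not tested.

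Other genes of membrane excitability were compared in the same way. Of 10 pump, exchanger and cotransporter genes, 2 were called in the mean of the sexes, against 5.29% of all genes. Both encode β subunits of the sodium-potassium pump. nrv2, a form known from glia, had 209 and 242 TPM in male fru+ and 224 and 199 TPM in female fru+, against 598 and 711 TPM in male fru- and 802 and 519 TPM in female fru- libraries (-1.57 ± 0.15, adjusted p = 7.28e-04, limma). nrv1 had 8.97 and 10.8 TPM in male fru+ and 6.05 and 11.7 TPM in female fru+, against 2.72 and 3.54 TPM in male fru- and 2.204 and 4.01 TPM in female fru- libraries (1.32 ± 0.28, adjusted p = 0.0294). The pump pore gene Atpalpha was not called (0.29 ± 0.25, adjusted p = 0.521). Of 6 other two-pore channel genes, 6 channel partners and regulators, 4 chloride channel genes and 6 tested TRP and mechanosensory channel genes, 0 were called in any of the 6 comparisons by limma. Over all genes, 0.0% to 5.29% were called in these comparisons. Of these 22 genes, 4 in males, 3 in females and 6 in the mean of the sexes had an unadjusted p under 0.05, against 13.4%, 14.7% and 23.5% of all genes. The 6 in the mean are named after their values were seen. Among the TRP genes, wtrw had a log2 fold change of -1.61 ± 0.41 (adjusted p = 0.0515), pain of -1.76 ± 0.47 (0.0628) and TrpA1 of 1.00 ± 0.28 (0.0674). The chloride channel gene ClC-a had -0.81 ± 0.29, Slob, whose product binds the Slo channel, -0.43 ± 0.16 and the two-pore channel gene CG34396 -0.67 ± 0.28 (adjusted p = 0.131 to 0.182, limma).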

How the data were processed

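RNA-seq of 8 libraries, 2 for each combination of sex and fru status, was analysed from gene tables. The authors trimmed reads, aligned them with HISAT2 to dm6, kept uniquely mapped reads and marked duplicates, and made the deposited TPM, FPKM and coverage columns with StringTie 2.1.1, from unstranded poly(A) libraries. The deposited TPM values are summed over isoforms and the deposited FPKM values were used only to work out depth. The deposited coverage is per base of exons. Tables also hold assembled loci, which were left out; TPM of the reference genes summed to 956415 to 985750 a library. There were 0 sample columns left unused. Read counts are unknown, so no counting interval is given.

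Genes with at least 1 TPM in at least 2 of 8 libraries (10111) were tested as log2(TPM + 1) with limma 3.58.1 in R 4.3.3 (group means, variance trend, all 8 libraries in 1 fit, Benjamini-Hochberg, adjusted p under 0.05). The method was tested on simulated data. Tables and figures were made with Python 3.11.15, pandas 2.3.3, scipy 1.17.1 and matplotlib 3.10.9. Fold changes are on the log2(TPM + 1) scale and are small for low genes. With 2 libraries a group, p-values measure the spread between these libraries.

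Values by library are given for members called in any comparison, the 3 members of smallest p in each pairwise comparison and in the mean of the sexes, the highest member of each role and members under the filter; others are given by their range. Transcript lengths are from the Ensembl annotation. The members and gene lists were chosen with earlier results of these data known.

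Replicate numbers pair libraries through a shared sorting session. Deviations of libraries with the same number correlated across genes at r = 0.204 to 0.249 among the other 3 groups and at -0.038 to 0.06 between female fru- and each of them. Alternatives were another pseudocount, filter, scaling, set of libraries, variance model, a replicate block and each library left out. Exon coverage in place of TPM and scaling to 8 neuron markers were chosen after seeing the data. Stac and CG8713, listed among related genes, were not used here.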

Additional observations from a re-analysis of the deposited data

How the results depend on the processing

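Precision rests on 2 libraries a group at 3.16 to 4.93 Gb each, and Ork1, Irk1 and Irk3 stayed under 10 TPM in all 8. For 18 differences of members (the 3 of smallest p in each pairwise comparison and in the mean, and those called under any setting), 282 of 298 alternative values kept direction and side of the threshold. Of the rest, 8 lost a call (all Elk), 7 gained one (Irk2 and Sh in 2 each, Ih, SK and para in females), and Ih in females turned to -0.22 without female fru- replicate 1, against 0.68 with all libraries and 1.58 without replicate 2. Over all 36 members, some alternative gave the other sign for 14 in males, 21 in females, 17 in the mean of the sexes, 28 for male against female fru+, 20 for male against female fru- and 17 for the difference between the sexes. Counts of all genes called moved further, and the cause was not tested. Left out in turn, single libraries gave 5 to 155 genes in males (52 with all), 4 to 236 in females (66), 111 to 515 in the mean of the sexes (535), 5 to 12 for male against female fru+ (9), 6 to 18 for male against female fru- (11) and 0 to 2 for the difference between the sexes (0). Without the filter the counts were 14 in males, 0 in females (1808 at an unadjusted p under 0.05), 65 in the mean and 19 for male against female fru+. With only the 4 libraries of a comparison they were 182 in males, 3 in females and 6 for male against female fru-, which was also 6 at a mean TPM above 10. Without the variance trend they were 18, 32 and 231 in males, females and the mean, and scaled to the neuron markers 22 in males and 232 in the mean. A pseudocount of 0.1 gave 1 gene for the difference between the sexes. With the replicate block, which pairs libraries by sorting session, females had 34 genes in place of 66, Elk kept its call (adjusted p = 0.0225, limma), and it changed no other member's call. Median-of-ratios scaling turned the split in the mean of the sexes to 267 higher and 222 lower, against 151 and 384, and neuron marker scaling gave 54 and 178. Median-of-ratios scaling also moved the summed two-pore channels to 0.907 of the fru- level, against 0.825.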
